A study of Mus musculus with 6 samples.

Results

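The genes described here are 10 regulators and effectors of the epithelial-mesenchymal transition (EMT): Snai1, Snai2, Twist1, Twist2, Zeb1, Zeb2, Prrx1, Prrx2, Cdh2 and Vim. They were read as the probe sets that the array annotation gives to exactly 1 gene, and all 10 were on the array, with 26 such probe sets, among 18193 genes measured in that way. For each gene the values come first from the probe set whose mean was highest on these arrays, then from any others. The study measured RNA of Flk1-positive cells from day 4 embryoid bodies, the balls of differentiating cells that mouse embryonic stem (ES) cells form in suspension. The groups were 3 arrays of Ldb1-/- (knockout) cells and 3 arrays of Ldb1+/+ (wild-type) cells, numbered 1 to 3 within each genotype and called biological replicates in the titles. Both groups grew under the same protocol, without leukaemia inhibitory factor and with serum, and the labels give no other allele or agent. Whether each genotype rests on 1 ES clone, and which part of Ldb1 was deleted, is not given in the sources used here. The series asks what LDB1, an adaptor protein that joins LIM-domain and other transcription factors, does in the haemangioblast, the precursor of blood and endothelium. For the genes described here the comparison asks whether cells without Ldb1 differ in the genes that turn epithelial cells into migratory ones.

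In EMT, cells loosen their junctions, give up apical-basal polarity and become migratory. In the mouse embryo this happens at the primitive streak, where epiblast cells leave the epithelium to become mesoderm, including the Flk1-positive mesoderm that yields blood and vessels. The zinc finger proteins of the Snail family (SNAI1, SNAI2) and the zinc finger homeodomain proteins ZEB1 and ZEB2 bind E-box DNA of the form CACCTG and repress epithelial genes such as E-cadherin (Cdh1). TWIST1 and TWIST2 are basic helix-loop-helix (bHLH) proteins, and PRRX1 and PRRX2 are paired-type homeodomain proteins of limb, face and vessel mesenchyme. N-cadherin (Cdh2) and the intermediate filament protein vimentin (Vim) are the classical products of cells that have made the transition.

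The bases before the start of 4 members are shown, so that the letters upstream of genes with and without an E-box can be compared. These members are Snai1, Twist1, Prrx2 and Vim, and the p of Vim was the lowest among the members without the replicate block. Twist1 and Prrx2 were higher in knockout arrays at every replicate number. So was Zeb2, whose 4 windows are not shown. Each run is the 250 bases before the start in RefSeq, build GRCm38.p6, plus strand. Capitals mark the E-box CACCTG (or its reverse complement CAGGTG) and TATAA (or TTATA).
Snai1, chr2:167537945-167538194: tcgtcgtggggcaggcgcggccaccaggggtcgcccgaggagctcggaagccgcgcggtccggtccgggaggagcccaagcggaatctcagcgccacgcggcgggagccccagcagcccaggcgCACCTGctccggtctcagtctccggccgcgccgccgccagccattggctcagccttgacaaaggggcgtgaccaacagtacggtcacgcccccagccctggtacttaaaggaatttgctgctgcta
Twist1, chr12:33957421-33957670: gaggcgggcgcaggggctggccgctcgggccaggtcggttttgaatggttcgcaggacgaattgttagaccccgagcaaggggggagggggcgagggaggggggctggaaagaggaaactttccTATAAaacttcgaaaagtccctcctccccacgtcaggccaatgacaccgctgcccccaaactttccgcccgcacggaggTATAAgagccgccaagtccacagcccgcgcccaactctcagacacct
Prrx2, chr2:30845117-30845366: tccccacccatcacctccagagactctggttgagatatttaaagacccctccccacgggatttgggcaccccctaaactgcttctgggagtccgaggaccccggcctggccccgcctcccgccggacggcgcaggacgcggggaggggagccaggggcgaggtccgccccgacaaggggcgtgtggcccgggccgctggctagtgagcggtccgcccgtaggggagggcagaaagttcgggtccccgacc
Vim, chr2:13574061-13574310: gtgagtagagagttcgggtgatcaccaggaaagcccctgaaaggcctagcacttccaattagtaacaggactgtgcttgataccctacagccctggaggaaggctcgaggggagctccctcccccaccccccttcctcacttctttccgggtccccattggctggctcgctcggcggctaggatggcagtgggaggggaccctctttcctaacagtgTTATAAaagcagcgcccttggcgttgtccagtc
The Snai1 window held 1 CACCTG, which began 126 bases before the start. Among the 10 windows of the 7 members with an entry, 4 of them alternative starts of Zeb2, it was the 1 window with CACCTG, and also the 1 window with any E-box of the form CANNTG, which includes CACCTG. Over all 32851 windows of that length, 17.2% held CACCTG and 66.2% held CANNTG on either strand. TATAA or TTATA stood at 2 places in the Twist1 window, 126 and 47 bases before the start, and as 2 overlapping matches in the Vim window, 33 and 32 bases before it. These letters also stood in 2 of the Zeb2 windows, and 22.8% of all windows held a match. GATAA or TTATC, the core letters of GATA factor sites, stood in the Prrx1 window and 3 of Zeb2, and in 22.6% of all windows. Of the Zeb2 windows 2 overlap and hold the same TATAA and the same GATAA, so these are 1 place for TATAA and 2 for GATAA. Such matches describe letters and were not measured as binding sites.

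Across the arrays, Ldb1 itself stood at 7.37 ± 0.83 in knockout and 7.80 ± 0.50 in wild-type cells (SD, n = 3 each), and this probe set leaves the genotype unchecked if it lies outside the deleted part. Kdr, the gene of Flk1, was high in both, at 11.70 ± 0.44 in knockout and 12.12 ± 0.33 in wild-type cells. All levels are log2 values, so that a difference of 1 is 2-fold. Arrays of the same number were alike beyond their genotype: their deviations from the genotype mean correlated at 0.698, 0.350 and 0.446 over all probe sets. With other numbers they correlated at most at −0.014. Deviations within a genotype sum to 0, so positive same-number values push the others below 0, and these add no separate evidence of pairing. A fit with the number as a block is therefore given beside the fit without it. Both number 3 arrays stood apart in a control probe set for the 5′ end of Gapdh, which read 12.93 in each genotype, against 10.19 to 11.11 on the other 4 arrays. The control for the 5′ end of 18S ribosomal RNA read 12.1 on knockout array 3 and 11.3 on wild-type array 3. On the other 4 arrays it read 7.73 to 8.67. A level near that of unused genes was judged by 44 probe sets for olfactory receptors, whose 95th percentile was 5.34. By that limit 9 of the 10 members were above background and Prrx1 was not. In bulk RNA, fewer cells that hold a transcript and less of it per cell cannot be told apart.

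No member passed the test. In limma, with Benjamini-Hochberg adjustment over all genes, 0 of the 10 members passed an adjusted p of 0.05 without the block and 0 with it, where 0.022% and 0.341% of all genes passed. Likewise 0 of their 26 probe sets passed over all probe sets in either fit, where 0.0222% and 0.0555% of probe sets did. At an unadjusted p under 0.05 there were 0 without the block and 1, Prrx2, with it, against 3.85% and 8.94% of all genes. Among the 26 probe sets there were 1 and 3, against 3.13% and 7.59% of all probe sets. Of the members 5 were higher and 5 lower in knockout cells by their means, where 46.3% of all genes were higher and 53.7% lower, and their median difference was −0.02 beside −0.015 over all genes. Their median absolute difference was 0.28, beside 0.11 over all genes and 0.13 over the 11199 genes above the median level. In size the members were spread out, from Twist2, at or above 11.4% of all genes, and Prrx1, at or above 32.2%, to Snai2, at or above 98.2%. The 2 genotypes overlapped in 10 of 10 members, where 7.92% of all genes did not overlap.

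**Figure D1:**
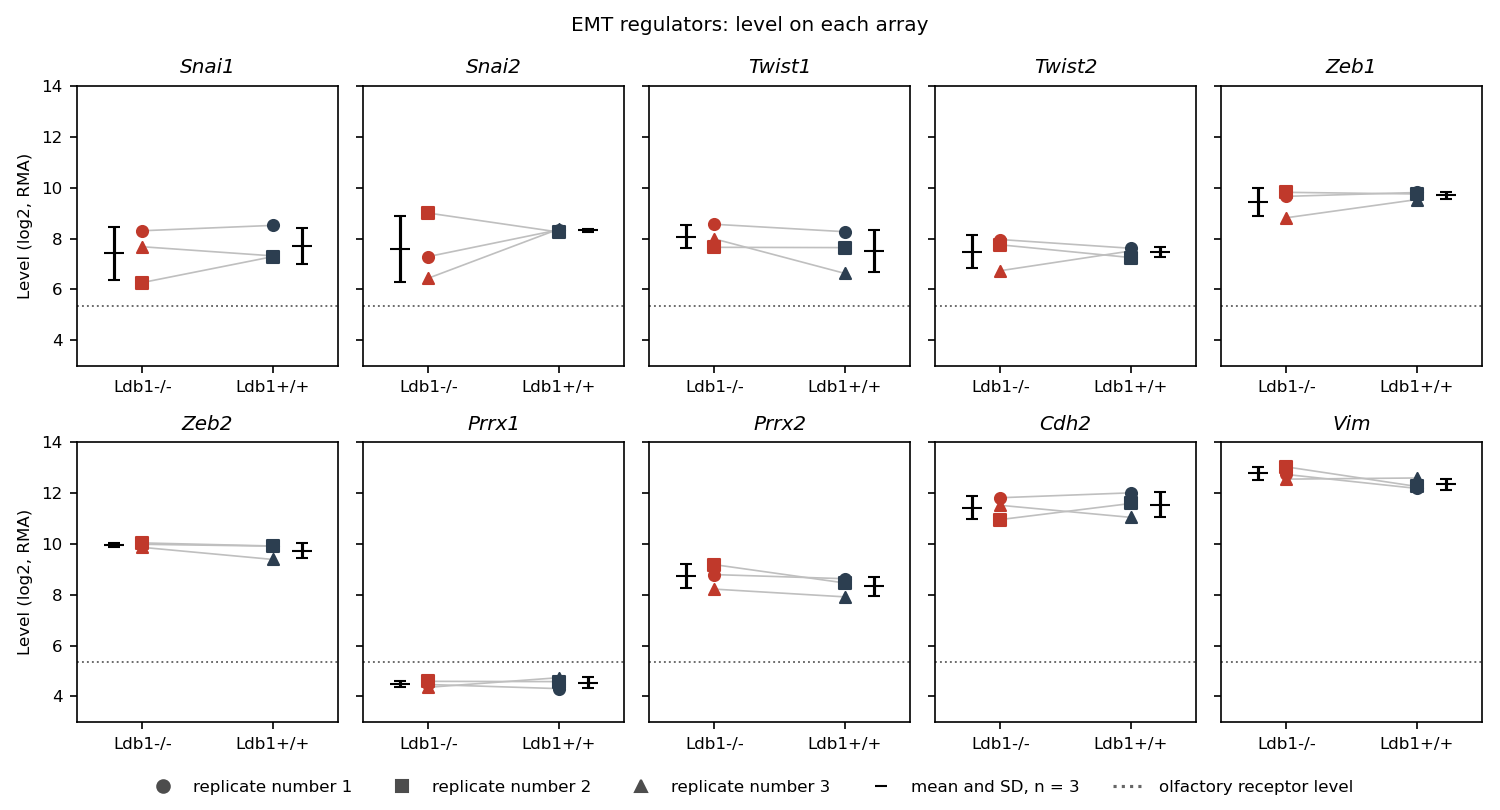
Level of each EMT regulator (log2) on the 3 Ldb1-/- arrays (left, red) and the 3 Ldb1+/+ arrays (right, dark), with arrays of the same replicate number joined, bars for the mean and SD, and a dotted line at 5.34, the upper level of olfactory receptor probe sets. Snai2 spans 6.44 to 9.00 in knockout and 8.25 to 8.37 in wild-type arrays, and Prrx1 lies under the line in all 6.

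Among the members the Snail genes had the widest spread in knockout cells. Snai1, on chromosome 2, the Snail gene needed for gastrulation, read 8.31, 6.27 and 7.68 on knockout arrays 1, 2 and 3, against 8.52, 7.29 and 7.32 on wild-type arrays 1, 2 and 3. Knockout array 2 was the lowest of all 6 and the number 1 arrays were the highest in both genotypes, so the genotypes overlapped. The means were 7.42 ± 1.04 in knockout and 7.71 ± 0.70 in wild-type cells, a difference of −0.29 (95% interval −1.64 to 1.06; limma, adjusted p = 1.00, blocked 0.885). By number the difference was −0.21, −1.02 and 0.36, so that pair 3 ran the other way, and the mean difference turned to 0.28 without knockout replicate 2 and to 0.11 without wild-type replicate 1.

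Snai2, on chromosome 16, the Snail gene known as Slug, read 7.29, 9.00 and 6.44 on knockout arrays 1, 2 and 3, against 8.34, 8.25 and 8.37 on wild-type arrays 1, 2 and 3. The wild-type arrays lay within 0.12 of each other, while the knockout arrays spread over 2.56, with 1 above and 2 below every wild-type array. Its knockout SD of 1.30 was at or above that of 99.9% of genes, and its wild-type SD of 0.06 at or above that of 7.95%. Of all members 6 had a wider SD in knockout and 4 in wild-type cells, where 44.8% of all genes were wider in knockout cells. The knockout mean was 7.58 and the wild-type mean 8.32, a difference of −0.75 (95% interval −2.15 to 0.66; limma, adjusted p = 1.00, blocked 0.761). This was the largest difference in size among the members, and by number it was −1.05, 0.75 and −1.93.

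The size of the Snai2 difference rested on which arrays were read. Without the number 2 arrays and with the block its difference was −1.49 and passed the test (limma, adjusted p = 0.00168), in a fit of 2 pairs where 0.72% of all genes passed as lower. Without the block, leaving out knockout replicate 2 gave −1.46 and leaving out knockout replicate 3 gave −0.18. The probe set with these values ends in _x_at, a kind that may also bind other transcripts. The second Snai2 probe set read 4.64, 5.81 and 4.39 in knockout arrays and 5.00, 5.25 and 5.16 in wild-type arrays, around the olfactory receptor limit. It had the same order of signs by number, at −0.36, 0.56 and −0.77, with a mean of −0.19. Within the knockout arrays Snai1 was lowest on the array where Snai2 was highest, while in wild-type cells both were lowest on array 2.

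Twist1, on chromosome 12, a bHLH factor of head and limb mesenchyme, read 8.56, 7.66 and 7.99 on knockout arrays, against 8.27, 7.64 and 6.63 on wild-type arrays. Wild-type array 3 was the lowest of the 6, and the other arrays of both genotypes overlapped. The means were 8.07 ± 0.46 in knockout and 7.51 ± 0.83 in wild-type cells, a difference of 0.55 (95% interval −0.48 to 1.59; limma, adjusted p = 1.00, blocked 0.622). At each number the knockout array read higher for Twist1, by 0.29, 0.01 and 1.36, and the mean difference was 0.11 without wild-type replicate 3. That array is also the one with the lowest upper quartile, 7.92 against 8.15 to 8.27 on the others, and the part of this in the result was not tested.

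Twist2, on chromosome 1, the close relative of Twist1 in dermis, read 7.96, 7.75 and 6.74 on knockout arrays and 7.62, 7.25 and 7.51 on wild-type arrays. Knockout arrays 1 and 2 were the highest of the 6 and knockout array 3 the lowest. The means of 7.48 ± 0.66 in knockout and 7.46 ± 0.19 in wild-type cells differed by 0.02 (95% interval −0.74 to 0.79; limma, adjusted p = 1.00, blocked 0.996). By number the difference was 0.34, 0.50 and −0.78. It turned to −0.026 when the arrays were quantile normalised again, so it has no settled direction.

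The 2 ZEB genes had opposite signs in their main probe sets. Zeb1, on chromosome 18, a repressor of Cdh1, read 9.66, 9.82 and 8.82 on knockout arrays and 9.81, 9.75 and 9.53 on wild-type arrays. Knockout array 3 was the lowest, and the other 5 arrays lay within 0.28 of each other. The means were 9.43 ± 0.54 in knockout and 9.70 ± 0.15 in wild-type cells, a difference of −0.27 (95% interval −0.91 to 0.38; limma, adjusted p = 1.00, blocked 0.799). Without knockout replicate 3 the difference was 0.039. Of its 3 other probe sets, 2 had a positive mean difference (0.18 and 0.05) and 1 a negative one (−0.10), and the one at 0.05 was not above the olfactory receptor limit.

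Zeb2, on chromosome 2, a repressor that also acts in blood and neural crest development, read 9.99, 10.04 and 9.87 on knockout arrays and 9.91, 9.92 and 9.39 on wild-type arrays. Wild-type array 3 was the lowest, and knockout array 3 lay just below the other 2 wild-type arrays. The means of 9.96 ± 0.09 in knockout and 9.74 ± 0.30 in wild-type cells differed by 0.22 (95% interval −0.20 to 0.65; limma, adjusted p = 1.00, blocked 0.780), with the knockout array higher at all 3 numbers, by 0.07, 0.12 and 0.48. The mean difference was 0.05 without wild-type replicate 3. All 5 Zeb2 probe sets had a positive mean difference, between 0.11 and 0.57, and 3 of them were higher in knockout arrays at every number. The probe set at 0.57 read 7.32, 8.24 and 7.71 in knockout arrays and 6.71, 7.92 and 6.92 in wild-type arrays, and it did not pass over all probe sets (limma, adjusted p = 1.00, blocked 0.403).

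**Figure D2:**
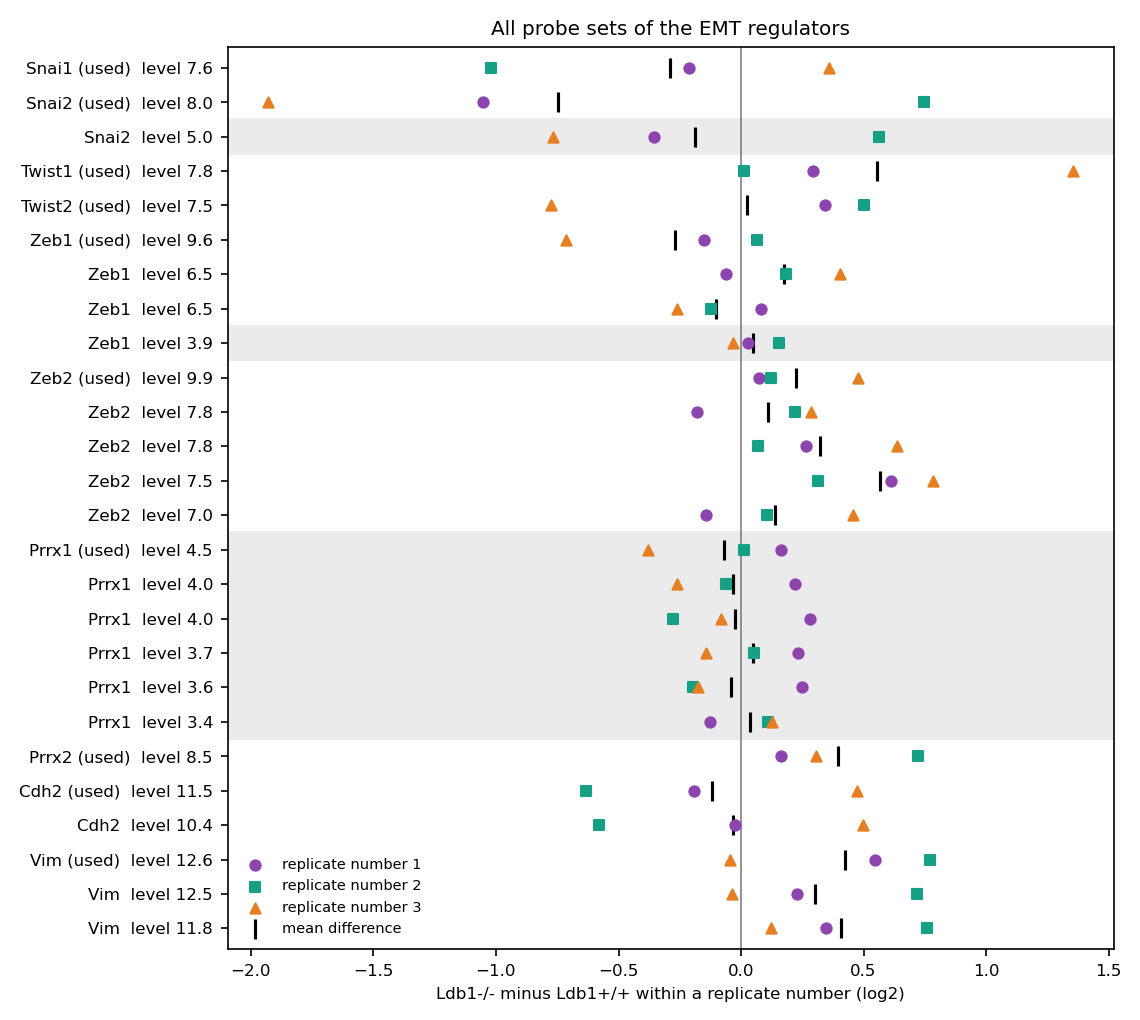
Difference between the Ldb1-/- and the Ldb1+/+ array of the same replicate number (log2, horizontal axis) for the 26 probe sets of the EMT regulators, with the mean level of each beside its name, a bar for the mean difference and grey bands for the 8 probe sets under the olfactory receptor limit. The Zeb2 bars all lie right of 0, and both Snai2 probe sets have number 2 on the right and numbers 1 and 3 on the left.

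The Prrx genes differed in whether they could be read. Prrx1, on chromosome 1, a limb and craniofacial mesenchyme factor, read 4.36 to 4.60 on knockout arrays and 4.31 to 4.74 on wild-type arrays, under the limit of 5.34. Its 5 other probe sets had means between 3.42 and 4.05 and lay under it too. Its difference of −0.07 (95% interval −0.44 to 0.30; limma, adjusted p = 1.00, blocked 0.971) is therefore a difference between readings that were not above background.

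Prrx2, on chromosome 2 and read by 1 probe set, stood at 8.79, 9.19 and 8.22 on knockout arrays and at 8.63, 8.47 and 7.92 on wild-type arrays. The number 3 arrays were the lowest of each genotype, and within each number the knockout array was higher, by 0.16, 0.72 and 0.30. The means were 8.73 ± 0.48 in knockout and 8.34 ± 0.37 in wild-type cells, a difference of 0.40. Without the block its 95% interval was −0.30 to 1.09 (limma, adjusted p = 1.00), and with the block it was 0.03 to 0.76 (limma, blocked adjusted p = 0.494). The difference did not pass over all genes in either fit. Without the block it was 0.17 without knockout replicate 2 and 0.65 without knockout replicate 3. With the block its unadjusted p in limma was 0.0369. Over the alternatives with the block and all arrays, that p ran from 0.0147 with array weights to 0.0903 after another quantile normalisation. The blocked interval clear of 0 therefore depended on the processing. Prrx2, Twist1 and Zeb2 were the 3 members higher at all 3 numbers and 0 were lower at all 3, where 13.5% and 14.9% of all genes were.

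The effector genes were read high in both genotypes. Cdh2, on chromosome 18, the gene of N-cadherin, read 11.82, 10.96 and 11.52 on knockout arrays and 12.01, 11.59 and 11.05 on wild-type arrays. The number 1 array was the highest of each genotype, and the lowest was number 2 in knockout and number 3 in wild-type cells. The means of 11.43 ± 0.44 in knockout and 11.55 ± 0.48 in wild-type cells differed by −0.12 (95% interval −0.85 to 0.62; limma, adjusted p = 1.00, blocked 0.963), which turned to 0.12 without knockout replicate 2 and to 0.11 without wild-type replicate 1. The second probe set gave −0.03, with the same signs by number. Cdh1, the epithelial cadherin that is replaced by Cdh2 in EMT, was not a member and read 8.17, 5.75 and 6.89 on knockout arrays, against 7.67, 6.53 and 4.65 on wild-type arrays. Wild-type array 3 was under the olfactory receptor limit, and the difference of 0.66 did not pass (limma, adjusted p = 1.00, blocked 0.838).

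Vim, on chromosome 2, had the smallest p of the members without the block. It read 12.73, 13.03 and 12.55 on knockout arrays and 12.18, 12.26 and 12.59 on wild-type arrays. Knockout arrays 1 and 2 were above every wild-type array, and knockout array 3 was below wild-type array 3. The means were 12.77 ± 0.24 in knockout and 12.35 ± 0.22 in wild-type cells, a difference of 0.42, or 1.34-fold (95% interval −0.01 to 0.86; limma, adjusted p = 1.00). With the block the interval was −0.01 to 0.85 (limma, blocked adjusted p = 0.569).

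By number the Vim difference was 0.55, 0.77 and −0.05, so that it lay in pairs 1 and 2. Without the number 3 arrays and with the block it was 0.66 and passed the test (limma, adjusted p = 0.0137), in a fit of 2 pairs where 1.34% of all genes passed as higher. The number 3 arrays were those with the higher 5′ control, and the part of that in the result was not tested. The other 2 Vim probe sets gave 0.30 and 0.41. The one at 0.41 was the 1 probe set of 26 whose groups did not overlap, at 12.00, 12.23 and 11.77 in knockout arrays and 11.65, 11.48 and 11.65 in wild-type arrays, where 7.49% of all probe sets did not overlap. It did not pass over all probe sets (limma, adjusted p = 1.00, blocked 0.631).

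**Figure D3:**
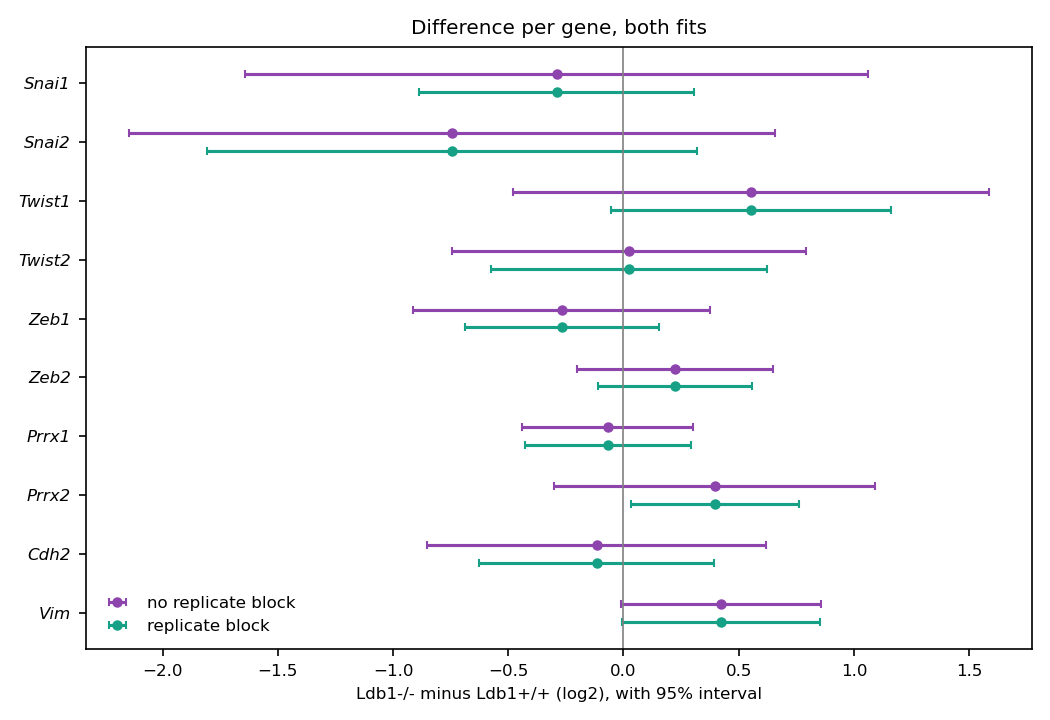
Difference between Ldb1-/- and Ldb1+/+ cells (log2, horizontal axis) for each EMT regulator, with its 95% interval in limma without the replicate block (purple, upper) and with it (green, lower). The intervals without the block all include 0, and with the block that of Prrx2 (0.03 to 0.76) lies above 0 before adjustment over genes.

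The range of a member's level over the 3 number means ran from 0.19 for Vim and 0.20 for Prrx1 to 1.63 for Snai1. In 9 of the 10 members it was larger than the difference between genotypes, and so it was in 83.5% of all genes, a like share. For Snai1 the number means were 8.41, 6.78 and 7.50, beside a difference of −0.29. For Twist1 they were 8.42, 7.65 and 7.31. Vim was the exception, with number means between 12.46 and 12.65. The median member difference by number was 0.12, 0.09 and 0.13, with 6, 8 and 5 of the 10 members higher in the knockout array. Over all genes the medians by number were 0, 0 and −0.02, and over the genes above the median level −0.05, −0.03 and 0.12. The members' median in pair 3 was near that of the genes above the median level, which were not matched to the members in level.

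The widths of the intervals bound what 6 arrays could show, and they differed between the fits. Without the block, the interval for Zeb2 reached from 0.87-fold to 1.57-fold, and that for Vim from 0.99-fold to 1.81-fold. Those for Snai1 and Snai2 reached from 0.32-fold to 2.09-fold and from 0.23-fold to 1.58-fold. In that fit a 2-fold lower level of either Snail gene and a 2-fold higher level of Snai1 lay within the intervals. So did a 2-fold higher level of Twist1 and of Prrx2, whose intervals reached 3.00-fold and 2.13-fold. With the block the Snai1 interval was −0.89 to 0.30 on the log2 scale. It rests on 3 pairs and a variance drawn toward that of all genes, and pair 2 alone was −1.02. A 2-fold change of Snai1 in either direction lies outside this narrower interval and inside the one without the block. Whether these arrays exclude it thus depended on the fit. The blocked interval of Snai2 was −1.81 to 0.32 and held a 2-fold lower level. That of Twist1 was −0.05 to 1.16 and held a 2-fold higher level.

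Similarity of pattern was judged by the smallest root mean square difference between values centred over the 6 arrays. For each member whose range over the arrays was over 1, the most similar genes were named among 3773 genes whose range was also over 1. For Twist1 they were Esrp1 (0.09), a splicing regulator of epithelial cells, 4931428F04Rik (0.10) and the collagen receptor gene Ddr1 (0.13). For Snai1 they were Chst7, Chtf8 and Brd2, at 0.23 to 0.24. For Snai2 they were 2700046A07Rik, Ctso and Tspan12, at 0.20 to 0.34. For Zeb1 they were Hsd11b2, Cmtm8 and Scd1, at 0.076 to 0.093. For Prrx2 the nearest was the basement membrane collagen gene Col4a6 (0.10), for Twist2 Aph1a (0.13) and for Cdh2 Galnt12 (0.10). These 6 arrays share genotype and number effects with all genes, so likeness over them is a description.

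Of the genes around the members, few passed the test. Among 12 bHLH partners and inhibitors of TWIST, 6 were higher and 6 lower, with a median of −0.01. With the block 1 passed: Hand2, a bHLH factor of heart and limb that dimerises with TWIST1, at 7.35 ± 0.52 in knockout and 10.05 ± 0.65 in wild-type cells, a difference of −2.70 (limma, blocked adjusted p = 0.00103, unblocked 0.174). Of the same list, Id1, Id2, Id3 and Id4, which encode inhibitors that take up bHLH partner proteins, differed by 0.69, 1.32, 0.45 and 1.74. Of these 0 passed over all genes in limma, with adjusted p from 0.476 to 1.00 and blocked from 0.0773 to 0.317. At an unadjusted p under 0.05 the list held these 4, all higher, and Hand2, lower, where 3.85% of all genes were. Id1, Id2 and Id4 were picked with their values known. Among 24 epithelial junction and keratin genes 14 were higher and 10 lower, with a median of 0.04. At an unadjusted p under 0.05 there were 5, all of them higher, where 3.85% of all genes were in both directions together. Krt19, a simple epithelial keratin gene, passed with the block, at 8.99 ± 0.37 in knockout and 7.78 ± 0.47 in wild-type cells, a difference of 1.21 (limma, blocked adjusted p = 0.0238, unblocked 0.667).

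In the other lists 0 genes passed in either limma fit. The 14 epithelial regulators had a median of 0.13, with 8 higher. The 22 mesenchymal effectors had a median of 0.16, with 15 higher. At an unadjusted p under 0.05 there were 4 of these, all of them higher, as in the epithelial junction list. Over all genes that share was 3.85% in both directions together. Fn1, the fibronectin gene, read 13.38 ± 0.58 in knockout and 13.32 ± 0.58 in wild-type cells. The 28 signals and receptors had a median of −0.03 and 1 gene at an unadjusted p under 0.05. The 11 gastrulation mesoderm factors had a median of −0.14 with 3 higher, by number −0.48, −0.35 and 0.28, so that pair 3 went the other way. The 17 SNAIL and ZEB cofactors and the 14 other EMT transcription factors had medians of −0.02 and −0.07, and 0 genes at an unadjusted p under 0.05.

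**Figure D4:**
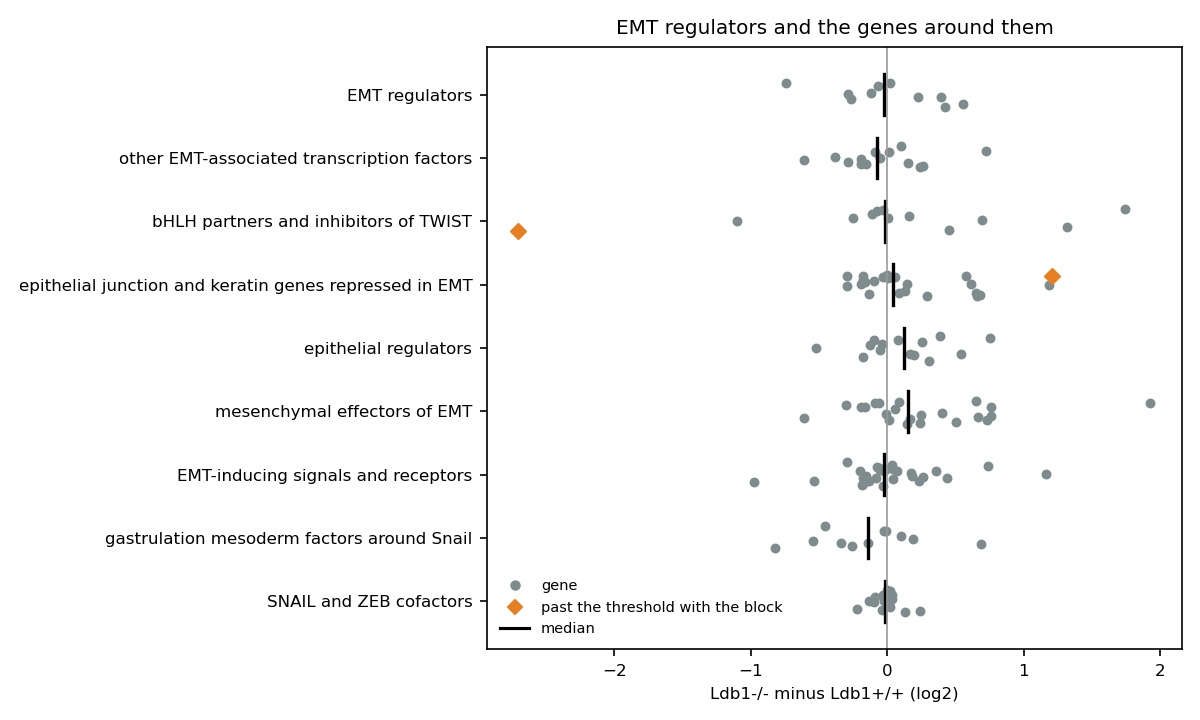
Difference between Ldb1-/- and Ldb1+/+ cells (log2, horizontal axis) for the 10 EMT regulators and for 8 lists of genes around them, 1 point a gene, with a bar for each median. Orange diamonds are the genes past an adjusted p of 0.05 with the replicate block, Hand2 at −2.70 and Krt19 at 1.21, and none of the EMT regulators is among them.

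Markers of other cells gave the makeup that these levels were read in. Of 12 epithelial markers, all but Ocln were above the olfactory receptor limit by their mean over all arrays, the value compared for each list here. Their mean level per array ran from 7.56 to 8.05 in knockout and from 7.29 to 7.72 in wild-type cells. In knockout cells 8 of them were higher and 4 lower, with a median of 0.30. At an unadjusted p under 0.05 there were 3, all higher. In limma Krt19 passed with the block and 0 passed without it. Of 10 neural crest markers measured, Foxd3, Pax3, Pax7, Tfap2a and Tfap2b were not above it, and the mean level ran from 5.46 to 6.01 in knockout and from 5.76 to 5.88 in wild-type cells. Smooth muscle and mesenchyme markers ran from 6.64 to 7.28 in knockout and from 6.51 to 7.26 in wild-type cells. By their mean over all arrays Myocd, Col3a1, Dcn and Lum were not above the limit. Myocd read 5.21, 4.28 and 4.34 on knockout arrays and 6.77, 5.63 and 4.77 on wild-type arrays. Its difference of −1.12 did not pass with the block (limma, blocked adjusted p = 0.142). Blood markers differed between the genotypes, from 5.31 to 5.72 in knockout and from 6.78 to 6.86 in wild-type cells, with 10 of 12 lower. In limma 1 of the 12 passed as lower, or 6 in the blocked fit, and 0 passed as higher in either. Cardiac mesoderm markers ran from 7.62 to 8.00 in knockout and from 8.03 to 8.82 in wild-type cells, with 9 of 12 lower, a median of −0.34 and Hand2 passing with the block. Paraxial mesoderm markers ran from 5.42 to 5.74 in knockout and from 5.58 to 6.10 in wild-type cells, with 10 of 12 lower and 0 passing in limma in either fit. Endoderm markers ran from 5.44 to 6.02 in knockout and from 5.77 to 6.01 in wild-type cells, with 9 of 11 lower and 0 passing likewise. Pluripotent cell markers ran from 7.95 to 8.23 in knockout and from 7.82 to 8.06 in wild-type cells, with 6 of 12 higher. Of these Dppa5a, a gene of pluripotent cells, passed with the block, at 11.84 ± 0.19 in knockout and 10.65 ± 0.13 in wild-type cells, a difference of 1.20 (limma, blocked adjusted p = 0.0315, unblocked 0.148). Endothelial markers ran from 5.56 to 6.78 in knockout and from 6.27 to 6.51 in wild-type cells, and haemangioblast surface markers from 8.09 to 9.36 in knockout and from 8.62 to 9.14 in wild-type cells, with 0 passing in either limma fit. The part of these cells in the members' values was not tested.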

How the data were processed

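The authors deposited 1 log2 expression level per probe set and array, made with RMA and the affy package, per the submitters' processing notes, which give no versions. RMA as usually run corrects background, brings arrays to a common distribution and summarises probes. The Affymetrix mouse genome array held 45101 probe sets, 64 of them controls, and 34945 had exactly 1 gene in the annotation. The probe set with the highest mean stood for each of 18193 genes. Knockout and wild-type arrays were compared with limma 3.58.1 (lmFit, eBayes) in R 4.3.3, adjusted by Benjamini-Hochberg over all genes with a threshold of 0.05, and probe sets likewise over 45037 of them. The same model was also fitted with replicate number as a block. Same-numbered arrays pair in the data, with correlations of 0.698, 0.350 and 0.446, each over the limit of 0.1, and the labels do not say what a number stands for. The members and lists were chosen with earlier results of these data known. The naming rule took the 10 members, Ldb1, Kdr, each list's genes past the threshold in either fit, up to 2 others of highest mean and the 3 most similar genes per member. Cdh1, Id1, Id2 and Id4 are not named by that rule; they were picked with their values known. Promoter sequences are RefSeq's. Alternatives are given in the closing section. P-values test the genotype difference against the spread that each fit leaves between these arrays, with each gene's variance drawn toward that of all genes. The number of arrays limits the precision. Plots used Python 3.11.15 and matplotlib 3.10.9.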

Additional observations from a re-analysis of the deposited data

How the results depend on the processing

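Over 30 alternatives, a member passed in 2, both with the replicate block and only 2 pairs: Snai2 without the number 2 arrays and Vim without the number 3 arrays, 1 member each. The replicate block on all 6 arrays changed the call of 0 members. Without the block, leaving out 1 array or a pair gave 0 members each time. The count over all genes was 4. With the replicate block it was 62, and 37 with the number as a random block. It ran from 1 to 6 with 1 array or a pair left out. With the block and without the arrays of number 1, 2 or 3 it was 50, 267 and 815. With the block it was 55 with the filter on dim probe sets, 26 after another quantile normalisation, 65 with array medians subtracted, 264 with a trended robust prior, 517 with array weights, 48 with probe sets averaged, 50 with the probe sets ending in _x_at, _s_at or _a_at left out, and 25 over probe sets. Without the block it was 68 with array weights and 10 over probe sets. The cause of these moves was not tested. Twist1, Zeb2, Prrx2, Vim and Snai2 kept their sign in all alternatives that gave them a value, from 0.11 to 0.93, 0.05 to 0.31, 0.17 to 0.65, 0.25 to 0.66 and −1.49 to −0.13. The others changed sign in 22 of the 296 differences over all members. With 1 array or a pair left out and no block, Snai1 ran from −0.73 to 0.28, Cdh2 from −0.41 to 0.14, Twist2 from −0.22 to 0.42, Prrx1 from −0.19 to 0.087 and Zeb1 from −0.46 to 0.039. Without the number 2 arrays, with or without the replicate block, Snai1 was 0.074, Cdh2 0.14 and Twist2 −0.22, and without those of number 1 Twist2 was −0.14. Without those of number 3 Prrx1 was 0.087, and it was 0.042 with array weights and the block. Twist2 was −0.026 after another quantile normalisation in both fits. Signal over background limits Prrx1, which the dim filter removed, and leaving out probe sets by their ID ending removed Prrx2.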
